A study of Mus musculus with 7 samples.

Results

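The genes of MHC class I antigen presentation were examined in megakaryocyte-erythroid progenitors from mice without both Ssb1 (Nabp2) and Ssb2 (Nabp1), with wild type mice as controls. The 10 members were H2-K1, H2-D1, H2-T23, B2m, Nlrc5, Tap1, Tap2, Tapbp, Psmb8 and Psmb9, out of 16593 genes with a probe. Every probe that the array annotation assigned to them was taken, which gave 15 of 25697 probes. The double knockout was measured on 3 arrays and the control, labelled wild type, on 4, all from female C57BL/6 mice. The cells had been sorted as lineage-low, c-Kit positive, Sca-1 negative and low for CD34 and CD16/32. Ssb1 and Ssb2 are single-stranded DNA binding proteins that act in the repair of DNA breaks. How and when the genes were removed, how old the mice were, and whether each array came from a separate animal is not given in the labels, so p-values measure only the spread between these samples.

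MHC class I molecules show peptides from inside the cell to cytotoxic T cells and natural killer cells. A proteasome, in its inducible form with the subunits Psmb8 and Psmb9, cuts proteins to peptides, the transporter made of Tap1 and Tap2 carries them into the endoplasmic reticulum, and tapasin (Tapbp) helps to load them onto a heavy chain bound to beta-2-microglobulin (B2m). H2-K1 and H2-D1 encode the classical heavy chains of C57BL/6 mice and H2-T23 the nonclassical heavy chain Qa-1, while Nlrc5 is a transactivator of class I genes, and interferons are known to raise most of these genes.

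In the double knockout, 5 of the 10 members rose and 0 fell, while 27.2% of all genes tested changed, 14.4% rising and 12.8% falling. Nlrc5 and Tap1, 2 of the 10, rose at least 2-fold, as did 2.5% of all genes tested. Those that rose were the transactivator Nlrc5 by 3.98-fold, the transporter subunits Tap1 by 2.44-fold and Tap2 by 1.57-fold, the nonclassical heavy chain H2-T23 by 1.83-fold and the light chain B2m by 1.55-fold. The classical heavy chains H2-K1 and H2-D1, tapasin and both immunoproteasome subunits did not pass the test. The members' median log2 change was 0.56 against 0.01 for all genes. Among the 5 members that were not called, Psmb8 had an unadjusted p under 0.05, as did 1012 of all 5496 genes that were not called. All tests of genes were made with limma on normalized log2 signals, double knockout minus control, and adjusted by Benjamini-Hochberg over 7547 genes, with a threshold of 0.05. Levels below are normalized log2 signals. The knockout arrays were also brighter before normalization, with a mean signal between 651 and 670 against 443 to 615 on control arrays, and with array brightness as a covariate only Nlrc5 of the 10 members passed (log2 change 1.96, adjusted p = 0.0235). The groups did not overlap in mean signal. The covariate was the mean log2 signal of an array, in which they did overlap. It ran from 7.87 to 7.94 on knockout arrays and from 7.55 to 7.88 on control arrays. In sorted bulk cells a change in the share of cells that express a gene and a change in RNA per cell cannot be told apart.

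The sequences just before the start sites of 4 members are given here, because class I promoters hold known elements, some of which respond to interferons, and these members gave different calls. Windows of 250 bases before and 50 bases after the start site, taken from RefSeq (build GRCm38.p6), were used for 8 of the 10 members, all but Nlrc5 and Tap2. Capitals mark exact matches, on both strands, to the interferon-stimulated response element core (GAAA, any 2 bases, GAAA), the gamma-activated sequence core (TTCNNNGAA), the CCAAT box (CCAAT), the kappa B site of the class I enhancer (the first run of capitals in the H2-D1 window) and the ATF/CREB half-site (TGACG). The kappa B and ATF/CREB motifs were added after the windows had been read, and no matches overlapped each other.
B2m (chr2:122147437-122147736, plus strand): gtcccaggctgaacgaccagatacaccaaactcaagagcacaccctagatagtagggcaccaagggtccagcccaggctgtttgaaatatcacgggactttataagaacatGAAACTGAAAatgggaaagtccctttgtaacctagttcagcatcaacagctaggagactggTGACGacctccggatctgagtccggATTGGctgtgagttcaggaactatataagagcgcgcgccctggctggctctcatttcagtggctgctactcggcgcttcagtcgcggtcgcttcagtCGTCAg
H2-T23 (chr17:36032652-36032951, minus strand): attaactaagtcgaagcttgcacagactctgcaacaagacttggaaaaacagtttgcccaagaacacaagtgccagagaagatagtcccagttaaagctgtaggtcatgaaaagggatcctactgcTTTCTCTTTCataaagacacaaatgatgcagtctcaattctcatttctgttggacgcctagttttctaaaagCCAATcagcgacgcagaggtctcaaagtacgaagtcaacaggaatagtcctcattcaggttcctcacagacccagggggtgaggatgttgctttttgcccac
H2-D1 (chr17:35262844-35263143, plus strand): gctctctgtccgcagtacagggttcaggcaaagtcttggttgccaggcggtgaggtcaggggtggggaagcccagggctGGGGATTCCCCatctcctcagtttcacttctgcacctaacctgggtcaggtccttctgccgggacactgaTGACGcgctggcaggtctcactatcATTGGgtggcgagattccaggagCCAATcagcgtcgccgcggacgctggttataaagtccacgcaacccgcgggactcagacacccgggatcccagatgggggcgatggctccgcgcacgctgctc
Tap1 (chr17:34187306-34187605, plus strand): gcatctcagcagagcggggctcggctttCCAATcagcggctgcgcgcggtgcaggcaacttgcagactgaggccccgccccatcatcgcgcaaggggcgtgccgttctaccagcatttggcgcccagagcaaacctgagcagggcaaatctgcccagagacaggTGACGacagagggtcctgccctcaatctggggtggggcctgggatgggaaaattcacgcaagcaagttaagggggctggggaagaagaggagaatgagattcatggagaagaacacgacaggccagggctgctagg

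The interferon element was matched in the windows of 2 members, B2m at -139 to -130 and H2-T23 at -124 to -115 relative to the start site, and in 3.44% of 32851 promoter windows of the same length. Both genes rose. Among the members the kappa B site was matched only in the windows of H2-K1 and H2-D1, at -171 to -161 in H2-D1. Neither gene was called. Of all windows 10, or 0.0304%, had a match, those of H2-K1 and H2-D1 included. This motif and the ATF/CREB half-site were added after the windows were read, so their shares of all windows are no background for members. The H2-K1 window matched that of H2-D1 at 89.7% of 242 aligned positions. A CCAAT box was present in 7 of the 8 members with a window, all except Psmb8, and in 37.4% of all windows. The ATF/CREB half-site was present in 5 of the 8 and in 20.8% of all windows. The gamma-activated sequence core was matched in 1 member, Psmb8, at -97 to -89, and in 8.30% of all windows. The windows of Tap1 and Psmb9 shared 275 of their 300 bases, because these genes start next to each other on opposite strands. Their CCAAT and ATF/CREB matches are the same bases, so each of these sites enters the counts above for both genes. Only exact matches were counted, so a window without a match, such as those of H2-K1 and H2-D1 for the interferon element, can still hold a variant. These matches describe the letters of the windows and are not a test of any factor.

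Nlrc5, a member of the NOD-like receptor family that acts at class I promoters, changed most among the members. It stood at 9.89, 9.25 and 9.68 on the 3 knockout arrays, against 7.72, 7.34, 7.85 and 7.55 on the 4 control arrays. Each knockout array lay above every control array, and the smallest gap between the groups was larger than the range within either group. The log2 change was 1.99 (SE 0.180, adjusted p = 0.000199), at 9.61 ± 0.323 (SD, n = 3) in the knockout and 7.61 ± 0.219 (SD, n = 4) in controls. It ranked 34th by log2 change among the 7547 genes tested. Before normalization its signal was 861 to 1353 on knockout arrays and 217 to 325 on control arrays. Without background correction the log2 change was 1.49, and it was 1.43 in the authors' deposited processed values.

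**Figure D1:**
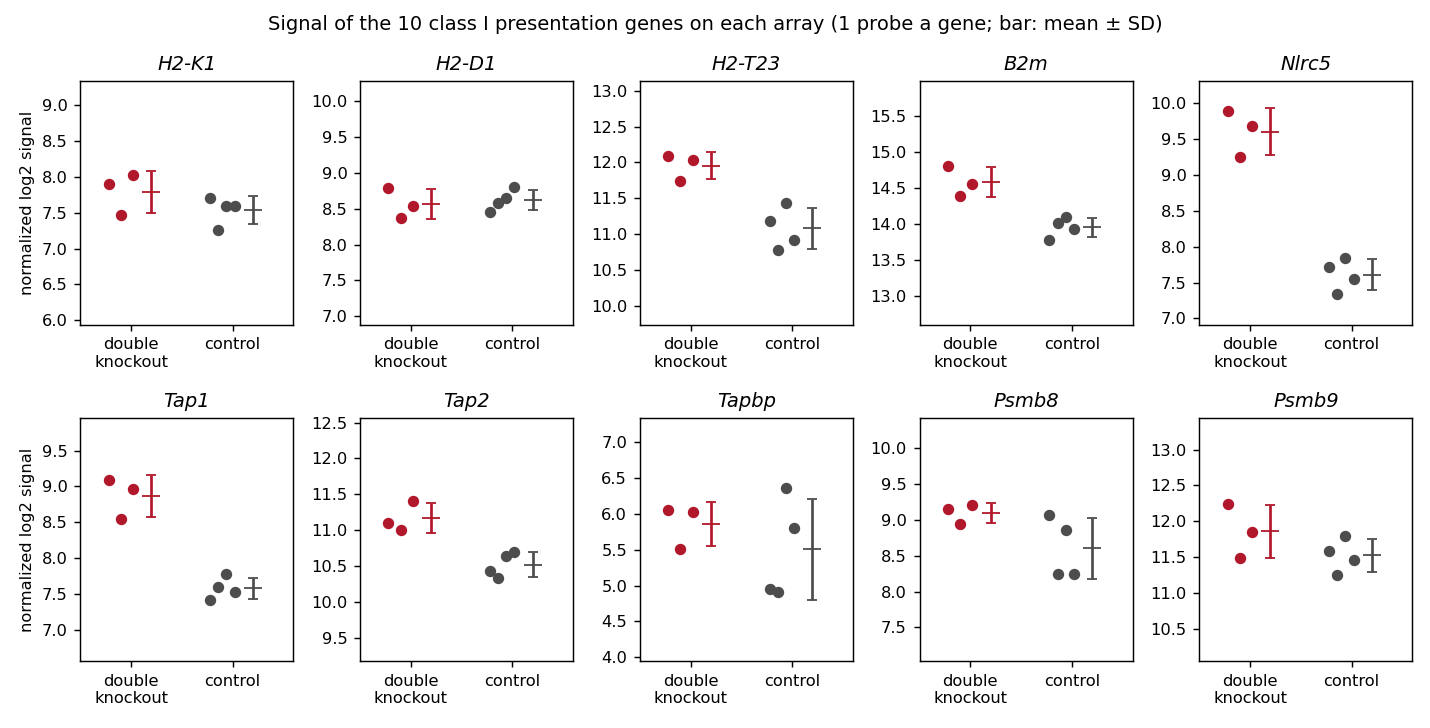
Normalized log2 signal (vertical axis, spanning the same number of log2 units in each panel) of the 10 members on the 3 double knockout arrays (left, red) and the 4 control arrays (right, grey), with 1 probe a gene; bars give the mean ± SD. The groups do not overlap for H2-T23, B2m, Nlrc5, Tap1 and Tap2, and they overlap for the other 5 genes.

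The transporter subunits rose. Tap1, which forms one side of the peptide pump, read 9.09, 8.54 and 8.97 on knockout arrays, against 7.42, 7.60, 7.77 and 7.53 on control arrays. The groups did not overlap, and the log2 change was 1.29 (SE 0.158, adjusted p = 0.00108), with means of 8.87 ± 0.289 (SD, n = 3) in the knockout and 7.58 ± 0.148 (SD, n = 4) in controls. Tap2, its partner in the pump, read 11.10, 11.01 and 11.41 on knockout arrays, against 10.42, 10.33, 10.63 and 10.69 on control arrays. These groups did not overlap either, and the log2 change was 0.65 (SE 0.147, adjusted p = 0.0120). The Tap2 call was lost without knockout array 3 (log2 change 0.53, adjusted p = 0.0568). The 95% interval of the log2 change ran from 0.93 to 1.64 for Tap1 and from 0.32 to 0.98 for Tap2, so that the intervals shared a narrow stretch. Whether the subunits differed in their change was not tested.

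Tapasin, which bridges the transporter and the empty heavy chain, was dim. Its probe with the higher signal read 6.05, 5.51 and 6.03 on knockout arrays, against 4.95, 4.91, 6.37 and 5.80 on control arrays. It was detected on 3 of 3 knockout arrays and 2 of 4 control arrays, and the control values spread over a wider range than the knockout values and enclosed them. The log2 change was 0.35 (SE 0.337, adjusted p = 0.460). The other Tapbp probe was detected on 3 of 3 knockout arrays and 1 of 4 control arrays and gave a log2 change of 0.40 (SE 0.333, limma's adjusted p = 0.396 among the 10723 kept probes). For both probes the dim control values limit what could be measured, and the interval of the first, -0.40 to 1.11, includes changes as large as that of Tap2.

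The 3 heavy chains gave different calls. H2-T23, whose product presents leader peptides of other class I molecules to receptors of natural killer cells, read 12.09, 11.74 and 12.03 on knockout arrays, against 11.18, 10.78, 11.44 and 10.91 on control arrays. The groups did not overlap, and the log2 change was 0.87 (SE 0.175, adjusted p = 0.00774). Its second probe gave 0.80 (SE 0.149, limma's adjusted p = 0.00638 among kept probes), also without overlap. H2-D1, a classical heavy chain, read 8.78, 8.37 and 8.54 on knockout arrays, against 8.46, 8.58, 8.65 and 8.80 on control arrays. Its groups overlapped almost fully, and the log2 change was -0.06 (SE 0.140, adjusted p = 0.771) with a 95% interval from -0.38 to 0.25. A change of the size seen for H2-T23 lies outside that interval. Under median scaling over all probes H2-D1 was at 0.61 (adjusted p = 0.0213), where the median of all genes was itself at 0.52, so that relative to the typical gene it stood at 0.09. In that setting all kept probes of the members shared 1 standard error, so the p does not measure the spread of H2-D1 itself.

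H2-K1, the other classical heavy chain, had a pair of probes that gave different calls. The brighter probe read 7.90, 7.46 and 8.02 on knockout arrays, against 7.71, 7.25, 7.59 and 7.60 on control arrays. These values overlapped, and the log2 change was 0.26 (SE 0.168, adjusted p = 0.283). The dimmer probe read 7.39, 7.18 and 7.06 on knockout arrays, against 6.80, 6.67, 6.39 and 6.90 on control arrays. Here each knockout array lay above every control array, and the log2 change was 0.52 (SE 0.156, limma's adjusted p = 0.0360 among kept probes). That call was lost without any 1 of the knockout arrays, without control array 2 or 3, and in the fit without a filter on dim probes. It was also lost with array brightness as a covariate (log2 change 0.22, limma's adjusted p = 0.645 among kept probes). Averaged over its probes, H2-K1 was at 0.39 (adjusted p = 0.0613). Class I heavy chain genes have near-identical copies in the mouse genome, and which transcripts the probes of H2-K1, H2-D1 and H2-T23 bind is uncertain.

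The light chain rose with both of its detected probes. B2m, which pairs with every heavy chain named here, read 14.81, 14.39 and 14.55 on knockout arrays, against 13.78, 14.01, 14.09 and 13.93 on control arrays. The groups did not overlap, and the log2 change was 0.63 (SE 0.139, adjusted p = 0.0113), with means of 14.58 ± 0.211 (SD, n = 3) in the knockout and 13.95 ± 0.133 (SD, n = 4) in controls. The second probe gave 0.60 (SE 0.152, limma's adjusted p = 0.0202 among kept probes), a call lost when knockout array 1 or 3 was left out. It was also lost with the brightness covariate, with a replicate block and under median scaling over detected probes. The third B2m probe stayed below the detection threshold on 7 of 7 arrays and was not tested. Before normalization the brighter probe reached 62.7% to 85.9% of the brightest probe's signal on knockout arrays and 39.9% to 48.96% on control arrays. Relative to the median gene, the B2m change was at 0.62 as reported and moved more with median scaling than that of the other called members. Under median scaling over the probes detected on all arrays it was 0.11 (adjusted p = 0.631), or 0.25 relative to the median gene, while scaling on the median of all probes gave 0.77 (adjusted p = 0.00311), again 0.25 relative to the median gene.

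**Figure D2:**
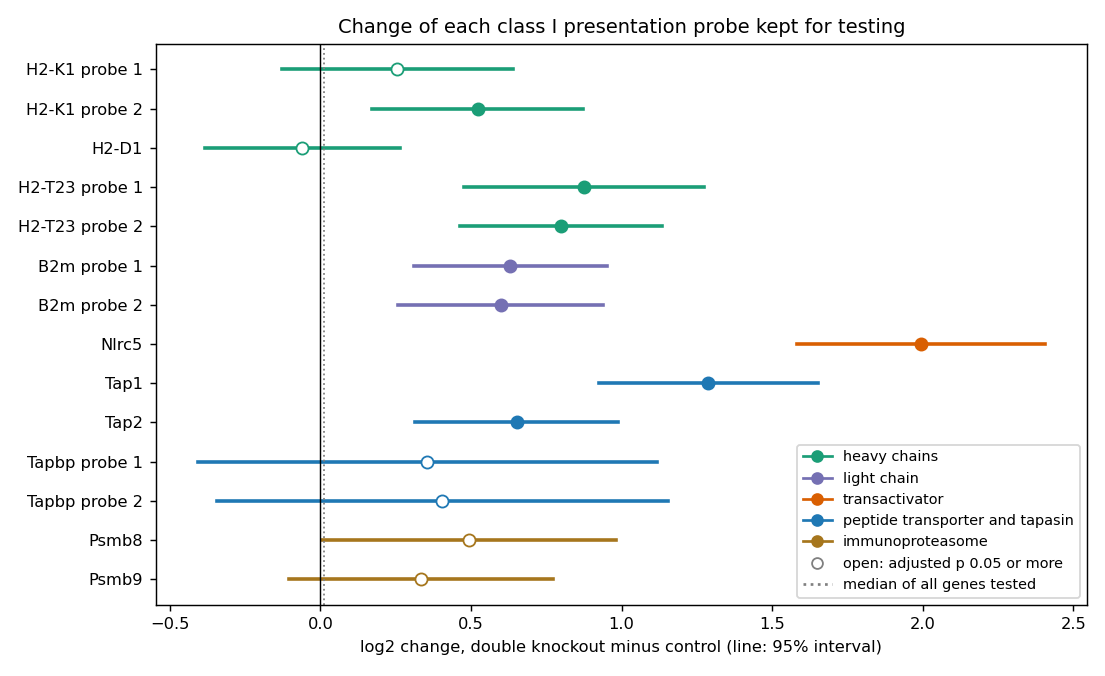
Log2 change, double knockout minus control, of the 14 probes of the members that were kept for testing (horizontal axis) with 95% intervals, coloured by role; filled points had an adjusted p under 0.05 over the kept probes, and the dotted line is the median of all genes tested. The 8 filled probes belong to H2-K1, H2-T23, B2m, Nlrc5, Tap1 and Tap2, and the points of the immunoproteasome subunits, of Tapbp and of H2-D1 are open.

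Of the 14 probes kept, 8 rose and 0 fell, where 26.3% of the 10723 kept probes changed, 13.5% rising and 12.8% falling. The double knockout lay above every control array for 8 of the 14, against 19.3% of kept probes. For genes, with 1 probe each, this held for 5 of the 10 members and for 20.3% of all genes tested. In the signals before normalization it held for 10 of the 15 probes, those of Psmb8 and Psmb9 included, and for 25% of all 25697 probes.

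The immunoproteasome subunits did not pass the test. Psmb8, which replaces the catalytic subunit Psmb5 in the inducible proteasome, read 9.15, 8.94 and 9.21 on knockout arrays, against 9.07, 8.24, 8.86 and 8.25 on control arrays. The control arrays fell into a higher and a lower pair, and only control array 1 reached into the range of the knockout arrays. The log2 change was 0.49 (SE 0.215, adjusted p = 0.117). Its 95% interval, from 0.01 to 0.98, held the changes of H2-T23, Tap2 and B2m, which were called. Without control array 1 Psmb8 passed, at 0.65 (adjusted p = 0.0392), and it passed with weights on the arrays, at 0.64 (adjusted p = 0.0235). Psmb9, which replaces Psmb6, read 12.24, 11.49 and 11.84 on knockout arrays, against 11.59, 11.25, 11.79 and 11.47 on control arrays. Knockout array 2 lay within the controls, and the log2 change was 0.33 (SE 0.193, adjusted p = 0.221) with a 95% interval from -0.10 to 0.77. The interval of Tap1, with which Psmb9 shares most of its promoter window, lay wholly above that of Psmb9. Psmb10, the third inducible catalytic subunit, differed by 0.32 (SE 0.143, adjusted p = 0.123).

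Some subunits of the constitutive core of the proteasome fell. Of 14 listed 12 were tested, 5 fell, 0 rose and 7 were not called, with a median log2 change of -0.21. Of all genes tested 12.8% fell. The catalytic subunits that the inducible ones replace were all lower: Psmb5 at -0.50 (SE 0.117, adjusted p = 0.0144), Psmb6 at -0.41 (SE 0.111, adjusted p = 0.0238) and Psmb7 at -0.62 (SE 0.164, adjusted p = 0.0219). Psmb5 read 11.32 to 11.57 on knockout arrays and 11.87 to 12.02 on control arrays, without overlap. The structural subunit Psma7 was at -0.57 (SE 0.129, adjusted p = 0.0121). Under median scaling over all probes 0 of the 12 were called (limma, where the list's median was 0.03 and that of all genes 0.52). Under median scaling over detected probes 9 fell and 0 rose, where 1781 of all 7547 genes tested fell. The Psmb5 call was lost without knockout array 1 (adjusted p = 0.0634), and the calls of Psmb6 and Psmb7 were each lost without knockout array 3 (adjusted p = 0.0867 and 0.0816). Psmb6 was also lost without knockout array 1 or control array 3, and Psmb7 without knockout array 2. The fifth subunit called, Psmb1, was at -0.37 (adjusted p = 0.0405) and lost its call without any 1 array except control array 4.

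**Figure D3:**
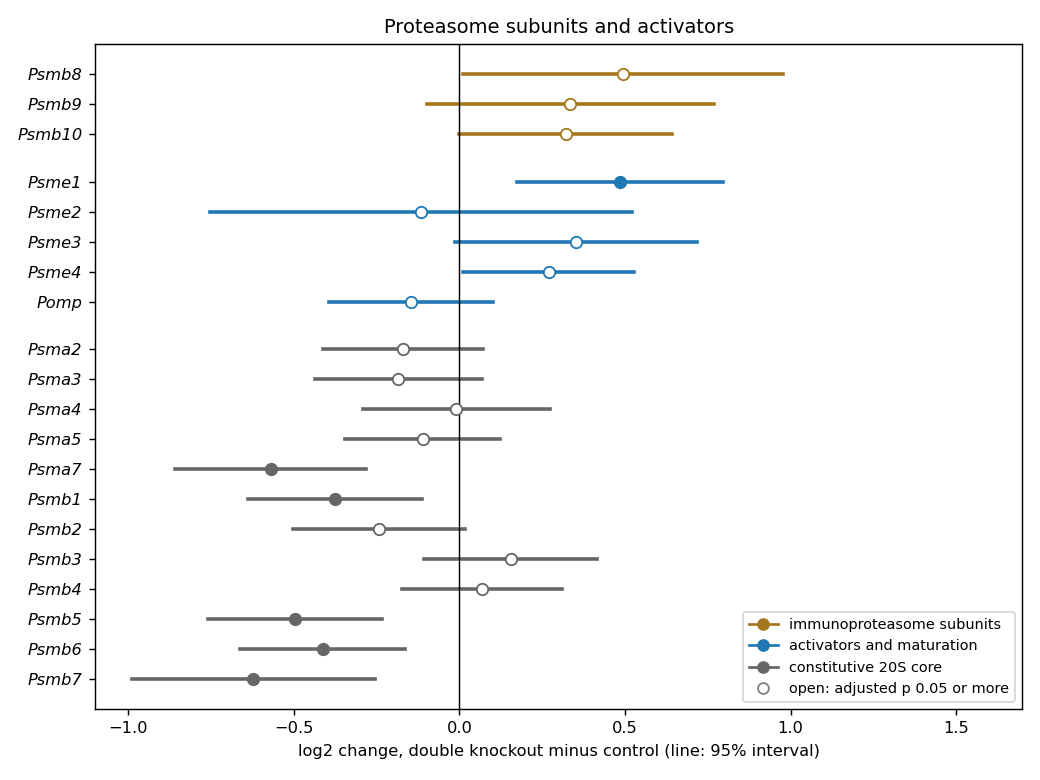
Log2 change, double knockout minus control, with 95% intervals (horizontal axis) of the inducible catalytic subunits, of the proteasome activators with the maturation factor Pomp, and of the tested constitutive 20S core subunits; filled points had an adjusted p under 0.05. The 3 inducible subunits lie right of 0 with open points, and the 5 filled points of the core lie left of 0.

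Among proteasome activators and related factors 6 were tested, 1 rose and 0 fell, with a median of 0.30. For this list and the next, 14.4% of all genes tested rose, and 1 of 6 is near that share. Psme1, a subunit of the interferon-inducible activator PA28, was at 0.48 (SE 0.138, adjusted p = 0.0297), and its call was lost without knockout array 1 or 3, without control array 1, 2 or 4, and with scaling on the median of detected probes (adjusted p = 0.457). Its partner in PA28, Psme2, was at -0.12 (SE 0.284, adjusted p = 0.783). Of 11 genes of peptide loading and trimming in the endoplasmic reticulum 8 were tested, 2 rose and 0 fell, with a median of 0.23. Pdia3, the oxidoreductase ERp57 of the loading complex, read 11.6 to 11.9 on knockout arrays and 10.9 to 11.2 on control arrays, a log2 change of 0.69 (SE 0.137, adjusted p = 0.00758). Tapbpl, the tapasin-related peptide editor TAPBPR, was at 0.85 (SE 0.214, adjusted p = 0.0181). Its relative tapasin, as given above, was not called. Erap1, an aminopeptidase that trims peptides, was at 0.50 (adjusted p = 0.137). Under median scaling over all probes, where the median of all genes was at 0.52, 7 of these 8 loading genes and 4 of the 6 activators and related factors rose. In that setting 3768 of all 7547 genes tested rose.

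Of 25 other class I and class I-like heavy chains, 18 had a probe and 8 were bright enough to be tested. Among these 1 rose and 0 fell, with a median of 0.23, and 1 of 8 is near the 14.4% of all genes tested that rose. The gene that rose was H2-T10, a nonclassical heavy chain recognised by gamma delta T cells. It read 6.19, 5.68 and 5.97 on knockout arrays and was detected on 0 of 4 control arrays, so that it entered the test only through the group in which it is high, and its p and the list's count of 1 are no support. Knockout signals were at least 1.62-fold higher (adjusted p = 0.00338), the bound being the knockout mean over the lowest detected signal of each control array, and it lost its call with scaling on the median of detected probes (adjusted p = 0.0593). Cytosolic peptidases, which trim or destroy peptides before transport, had 7 tested and 0 called by limma, with 3 at an unadjusted p under 0.05. Of all 7547 genes tested 2051 were called and a further 1012 had an unadjusted p under 0.05, and 3 of 7 is near that share. The peptidases with the smallest p were Thop1 at -0.35 (adjusted p = 0.0552) and Lap3 at -0.56 (adjusted p = 0.0617). With scaling on the median of all probes 6 of the 8 other heavy chains and 3 of the 7 peptidases rose. In that setting 3768 of all 7547 genes tested rose. With scaling on the median of detected probes 0 of the 8 heavy chains rose and 2 of the 7 peptidases fell. There 781 of all 7547 genes rose and 1781 fell.

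Transcription factors of class I promoters and of the interferon pathway had 16 of 25 tested, 5 rose and 1 fell, with a median of 0.03. Of all genes tested 14.4% rose and 12.8% fell. The interferon regulatory factor Irf7 read 9.36 to 9.94 on knockout arrays and 6.96 to 7.75 on control arrays, a log2 change of 2.41 (SE 0.208, adjusted p = 0.000160). Irf1, which binds class I and Tap1 promoters after interferon gamma, was at 1.82 (SE 0.234, adjusted p = 0.00128). Stat2 and Irf9, which act downstream of the type I interferon receptor, were at 1.60 (adjusted p = 0.00919) and 0.79 (adjusted p = 0.0162), with Stat2 detected on 2 of 4 control arrays and its change 1.23 once dim values were set to the detection floor of their array. Irf9 lost its call without knockout array 1 or 3. Irf2 was at 0.57 (adjusted p = 0.0233), which no longer passed when knockout array 1 or 3 or control array 2 or 3 was left out. The gene that fell was Nfyb, a subunit of the factor that binds the CCAAT box, at -0.40 (adjusted p = 0.0254), with 0.24 under median scaling over all probes and its call lost without any array except control array 1 or 2. The probe of the receptor subunit Ifnar1 was detected on 0 of 7 arrays.

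Genes of the class II pathway, by which professional antigen-presenting cells show peptides from outside the cell, were also listed. Of 12 genes 8 were tested, 2 fell and 0 rose, with a median of -0.24, where 12.8% of all genes tested fell. Ifi30, a lysosomal thiol reductase, was at -0.87 (SE 0.165, adjusted p = 0.00628), and under median scaling over all probes at -0.21 (adjusted p = 0.470). The class II chain H2-Aa was at -0.60 (SE 0.166, adjusted p = 0.0259) and was detected on 1 of 3 knockout arrays and 3 of 4 control arrays. It no longer passed when any 1 knockout array was left out, without background correction (log2 change -0.16) or in the authors' processed values. Under median scaling over all probes 3 of the 8 rose and 1 fell, where 3768 of all 7547 genes tested rose and 116 fell.

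Set side by side by role and array, the groups of genes differed in how far the arrays were apart. Values here are differences in log2 signal from the control mean, averaged over the members of a role. The transporter and tapasin stood at 0.88, 0.48 and 0.93 on the 3 knockout arrays and between -0.27 and 0.39 on control arrays, without overlap. The heavy chains stood at 0.51, 0.11 and 0.45 on knockout arrays and between -0.21 and 0.15 on control arrays, and knockout array 2 lay within the controls. The immunoproteasome subunits stood at 0.63, 0.15 and 0.46 on knockout arrays and between -0.32 and 0.27 on control arrays, again with knockout array 2 within the controls. Knockout array 2 was the lowest of the 3 for 10 of the 10 members, and for 32.3% of all genes tested. Control array 2 was the lowest of the 4 controls for 7 of the 10 members, and for 21.7% of all genes tested. What sets these arrays apart was not tested.

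**Figure D4:**
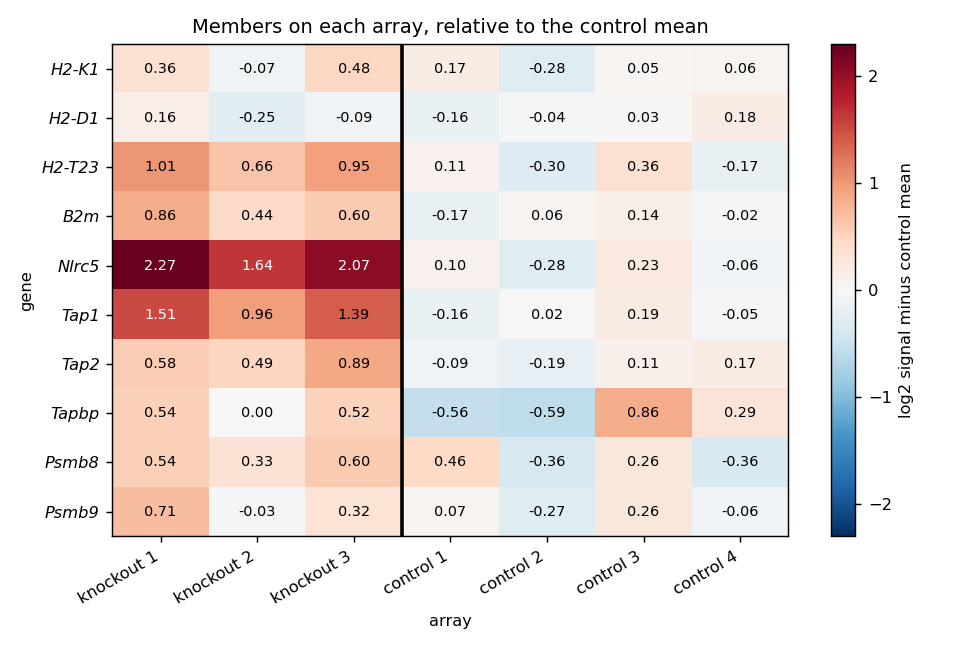
Log2 signal of each member (rows) on each array (columns, double knockout left of the line and control right) minus the mean of the control arrays; colour and number give the same value. Nlrc5 at 1.64 to 2.27 and Tap1 at 0.96 to 1.51 are the highest on knockout arrays, where array 2 has the lowest value of the 3 in each row.

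After the group means were removed, the members still varied together across the 7 arrays, which were normalized together. The median Pearson correlation over the 45 pairs of members was 0.60, and 43 of the pairs were positive, where over all pairs of the 7547 genes tested the median was 0.01 and 50.6% were positive. The highest was between Nlrc5 and Psmb9 at 0.98, although Nlrc5 was called and Psmb9 was not. B2m and Tap1 followed at 0.92 and H2-T23 and Nlrc5 at 0.90. The lowest was between H2-D1 and Psmb8 at -0.26. These correlations describe 7 arrays.

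The order of log2 changes was Nlrc5, Tap1, H2-T23, Tap2, B2m, Psmb8, Tapbp, Psmb9, H2-K1 and H2-D1, of which Tap2 and B2m, at 0.65 and 0.63, lay within a standard error of each other, as did Tapbp, Psmb9 and H2-K1. Psmb8, which was not called, lay within its standard error of B2m, which was called, and of Tapbp. Nlrc5 lay first as reported here and under the 5 settings plotted beside it. Tap1 lay second except in the authors' processed values, where H2-T23 was at 0.87 and Tap1 at 0.86, and the brightness covariate left Tap1 uncalled (log2 change 1.33, adjusted p = 0.0568).

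**Figure D5:**
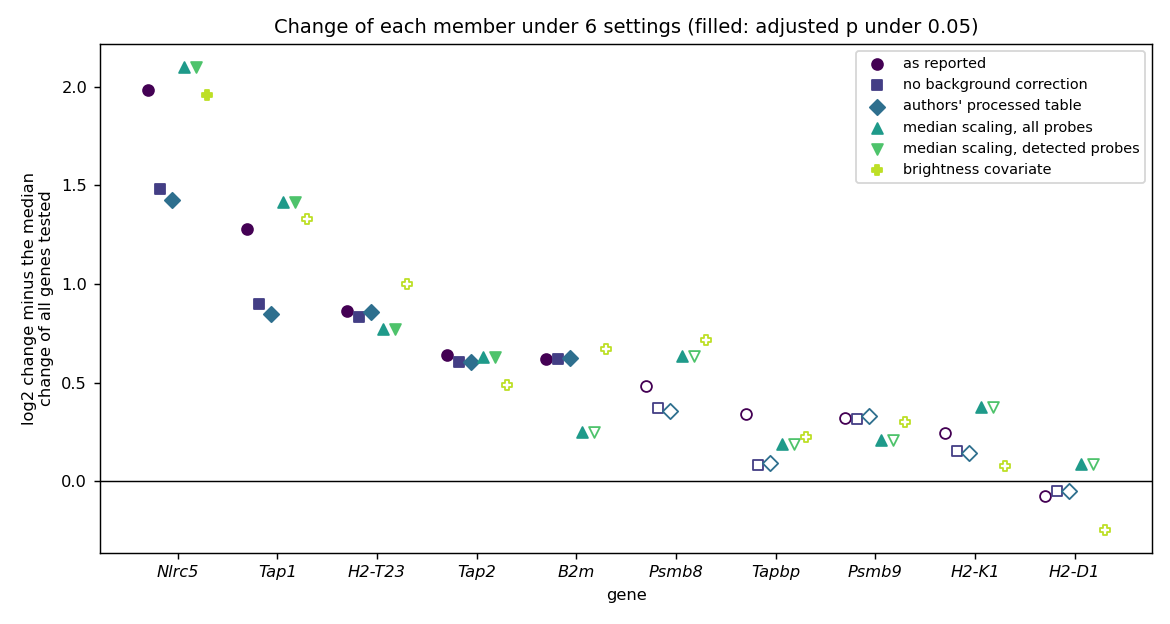
Log2 change of each member minus the median change of all genes tested (vertical axis) as reported and under 5 other settings (symbols); filled symbols had an adjusted p under 0.05 in the fit over genes. Nlrc5 is filled under all 6 settings and lies between 1.42 and 2.10, while H2-D1 is filled only under median scaling over all probes and lies between -0.24 and 0.09.

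The labels and the make-up of the samples were checked with other genes. The brighter Nabp2 probe was lower in the double knockout (log2 change -2.04, SE 0.186, adjusted p = 0.000203), and the Nabp1 probe, detected on 0 of 7 arrays, checks nothing. Markers of the sorted population were measured, with 10 of 10 megakaryocyte-erythroid genes tested, of which 1, Itga2b, was higher (log2 change 1.99) and 0 lower. The erythroid transcription factors Gata1 and Klf1 read lower on each knockout array than on any control array, at -0.48 (adjusted p = 0.0524) and -0.32 (adjusted p = 0.0522), and 2 genes of this list passed as lower without background correction, in the authors' processed values and in 4 other settings. Of the sorting gate, Fcgr2b was detected on 3 of 3 knockout arrays and 0 of 4 control arrays, so that it too was tested only through the knockout, and its log2 change of 0.52 became -0.07 with dim values set to the detection floor. Cd34 was at -0.37 (adjusted p = 0.134). Some markers of other cell types differed between the groups and others did not, where 14.4% of all genes tested rose and 12.8% fell. Of 6 tested B-lineage genes 6 fell, with a summed signal before normalization of 1488 to 1575 on knockout arrays against 2079 to 2669 on control arrays, and Pax5 was detected on 0 of 7 arrays. Of 8 neutrophil and monocyte granule genes 3 rose and 1 fell, with sums of 4351 to 6259 against 2285 to 3286. Of 10 mast cell and basophil genes 3 were tested and 2 rose, with sums of 1910 to 2255 against 1564 to 1907, and 7, the mast cell protease Cma1 and the basophil protease Mcpt8 among them, were detected on 0 of 7 arrays. Of T and natural killer cell genes 2 were tested and 0 called, with sums of 1941 to 2521 against 1438 to 1786 and Cd3e and Cd8a detected on 0 of 7 arrays. Of macrophage and dendritic genes 2 were tested and 0 called, with sums of 1462 to 1557 against 1369 to 1616 and Itgax detected on 0 of 7 arrays. Of 10 endothelial and stromal genes 3 were tested and 1 was called higher, Pdgfrb, which was detected on 3 of 3 knockout arrays and 0 of 4 control arrays, with sums of 2255 to 2328 against 1932 to 2190 and Cdh5 and Kdr detected on 0 of 7 arrays. These sums include background and the brightness of the arrays. The part of other cell types in the changes of class I genes was not tested.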

How the data were processed

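Total RNA of 7 samples of sorted progenitors was amplified to biotinylated cRNA and measured on single-colour MouseRef-8 v2.0 BeadArrays, per the labels. The authors deposited a probe signal, an intensity on a linear scale that is neither background-corrected nor normalized, and a detection p-value for each probe and array. GenomeStudio was used, per the submitters' processing notes, with settings not given in the sources used here. The authors also deposited a processed log2 table, used as an alternative. After centring per probe its values correlated with quantile-normalized log2 signals at a median of 0.99996, its direction is that of the signals, its column medians ran from 0.00164 to 0.00513, and the baseline of its centring is unknown.

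Signals were normalized with neqc of limma 3.58.1 in R 4.3.3 (offset 16, background from the detection p-values, quantile normalization). The annotation gave 1 gene symbol for 23978 of 25697 probes, several for 0 and none for 1719. Gene IDs of 23962 were found in RefSeq's mouse table, and 0 symbols changed. Probes with a detection p under 0.05 on at least 3 arrays were kept, 10723 in all, and for each gene the brightest kept probe by mean level was used, giving 7547 genes. All adjusted p-values are from limma's lmFit and eBayes, two-sided, adjusted over all genes, or over all kept probes where so stated. The number of arrays limits the precision. The procedure was run on simulated data with independent noise for each gene and no difference in brightness between arrays. That run does not test how the brightness seen here affects the calls. The 10 members, the lists and the rule for named genes (every member, up to 4 called genes of each list by absolute change, otherwise those with the smallest p, the targeted genes, genes of the sorting gate and the genes most like the members) were chosen with earlier results of these data known. Further genes were named after their values were seen.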

Additional observations from a re-analysis of the deposited data

How the results depend on the processing

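Of 7547 genes 2051 changed. The number was 3884 with median scaling on all probes, 75 once array brightness was a covariate and 1355 in the fit with a replicate block, and it ran between 1116 and 1923 when 1 array was left out, being 1176 without knockout array 1 and 1116 without knockout array 3. Of the changed genes 52.95% rose, against 97.01% under median scaling over all probes, 30.5% under median scaling over detected probes and 77.3% with the brightness covariate. The number of members that rose, 5 here, was 10 under median scaling over all probes, 1 with the brightness covariate and 4 to 6 when 1 array was left out. H2-D1 turned to 0.61 under median scaling over all probes. The cause of these shifts was not tested. Under median scaling over all probes, limma's fit over probes gave every kept probe of the members the same standard error, 0.241. The p-values and counts of that setting therefore do not measure the spread of each gene between samples. With the replicate block 4 members rose and B2m lost its call (adjusted p = 0.0582). Arrays with the same number did not deviate together from their group means, with correlations over genes of -0.17, -0.02 and 0.03, so the numbers were not taken to pair the samples. In no setting run was a member called lower. The members' median minus that of all genes lay between 0.46 and 0.65 over all settings. Nlrc5 was called in each of the 17 alternatives tried on its probe. Probes near background, such as those of Tapbp and H2-T10, are limited by their signal.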

Other observations

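Of the members, 8 lie on chromosome 17, B2m on chromosome 2 and Nlrc5 on chromosome 8. Between Tapbp and H2-T23 the RefSeq annotation places 116 other protein-coding genes, of which 64 were tested. Among these 64 genes 6 rose and 10 fell, with a median log2 change of -0.01. Of all genes tested 14.4% rose and 12.8% fell, and 10 of 64 is near the second share. Psmb9, Tap1, Psmb8 and Tap2 are neighbours with no other annotated gene starting between them, and their log2 changes in that order were 0.33, 1.29, 0.49 and 0.65. Among the genes that fell were the class II gene H2-Aa at -0.60 and Tcf19 at -0.93, and among those that rose were the bromodomain gene Brd2 at 0.41 and the histone methyltransferase gene Ehmt2 at 0.56, named here after their values were seen.

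The mean of the 10 members across the 7 arrays was set against every other gene tested. Of 7537 genes, 143 had a Pearson correlation of at least 0.9 with it. Of those 143, the 6 most like the members after group means were removed were Bcap29 at 0.96, Sirt1 at 0.94, Nrbf2 at 0.94, Bahd1 at 0.93, Cpq at 0.93 and Nifk at 0.91. Their log2 changes ran from 0.35 for Nrbf2 to 0.60 for Cpq, and Sirt1 and Nrbf2 were not called (adjusted p = 0.142 and 0.137). With 7 arrays such correlations describe these samples only.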
